A study of Mus musculus with 24 samples.

Results

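The livers of 8 mice were examined here, the group labelled C26-CHO, out of 24 mice in the study. The group was taken by its label, and the question was which genes varied together from mouse to mouse within it. All 8 were CD2F1 mice that carried the transplanted C26 colon carcinoma, a tumour that causes wasting (cachexia), and all 8 received cholestyramine. Feeding of the resin, at 2% of the chow, began on day 1 after injection of the tumour cells and lasted until day 10. The study's other groups, 8 sham-injected mice and 8 tumour mice without the resin, were not compared. RNA was measured in bulk liver, 1 library per mouse, and the mice are numbered 1 to 8 as in the labels. No sex, age, batch, hour of collection, food intake or tumour weight is given there.

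Cholestyramine is not absorbed; it binds bile acids in the gut and carries them out of the body. In a normal liver, bile acids that return from the gut activate the receptor FXR (gene Nr1h4), which induces the repressor SHP (Nr0b2) and so restrains Cyp7a1, whose product limits the rate at which cholesterol becomes bile acids. Loss of bile acids lifts this brake, and the cholesterol then consumed is replaced through SREBP2 (Srebf2), a transcription factor that switches on the enzymes of cholesterol synthesis. The C26 tumour drives another programme in liver, an acute phase response in which interleukin 6 and STAT3 raise secreted proteins such as A2m and serum amyloid A while many metabolic enzymes decline.

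Recovered reads ranged from 20750904 to 30503996 per library. Values below are the authors' normalized read counts, that is, reads divided by a size factor of each library, so they compare a gene between mice but not 1 gene with another. Chi-square per degree of freedom between pairs of libraries ran from 11.8 to 193.6, so no pair agreed within counting noise and each library was counted as 1 sample. Mouse 1 stood apart over all tested genes. It scored 59.1 on the first principal component of all tested genes, which held 37.1% of the variance, while mouse 7 scored 15.2 and the other 6 lay between -24.7 and -7.92. In mouse 1 the 10 most abundant genes took 20.9% of reads against 27.3% to 29.6% in the others, and mitochondrially encoded genes 4.66% against 3.14% to 3.78%. Defining hepatocyte genes were abundant in every mouse, 10 of the 11 on the list being found, and transcripts of the Y-linked gene Ddx3y were present in all 8 at 922 to 1486. Because mouse 1 alone can create a relation, values are given with 8 mice and again without mouse 1, written as 7 mice. All p values measure the spread between mice. In bulk tissue, fewer cells of a type and less RNA per cell cannot be told apart.

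RNA of neighbouring organs was also present in 2 libraries, read from marker genes chosen after the values were seen. Mouse 8 held genes of the adrenal gland. Cyp11a1, the first enzyme of steroid hormone synthesis, stood at 702 there and at 0 to 0.847 in the others, Hsd3b1 at 1260 against at most 2.38, and Chgb, a secretory granule protein of the adrenal medulla, at 579 against at most 2.01. Other genes of that set were present in every mouse and highest in mouse 8: Cyp21a1, a steroid hydroxylase, at 776 against 37.6 to 365, and Star, which moves cholesterol into mitochondria, at 1889 against 24.5 to 38.8. Mouse 4 held abundant enzymes of the exocrine pancreas. Amy2a2, pancreatic amylase, stood at 1309 in mouse 4, at 34.9 in mouse 8 and at 0.783 to 3.03 elsewhere, and Ctrb1, chymotrypsinogen, at 391 in mouse 4 against at most 4.66. These genes headed the ranking by spread, so the most variable genes of this group mark other organs. Their part in the results below was not tested.

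**Figure D1:**
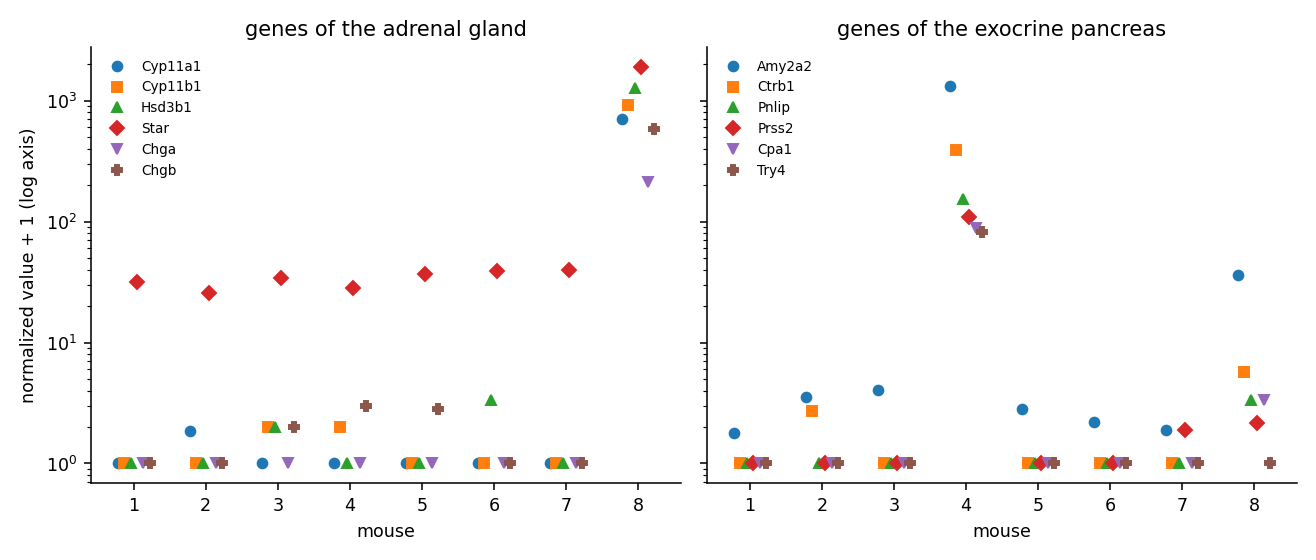
Normalized value plus 1 (log axis) of 6 adrenal genes (left) and 6 genes of the exocrine pancreas (right) in each of the 8 mice; each marker is 1 gene in 1 mouse. The adrenal genes are high in mouse 8 only, and the pancreatic genes are high in mouse 4 with traces in mouse 8.

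Bile acid synthesis genes came first. Cyp7a1 (chromosome 4, 6265612 to 6275633, GRCm38) had values of 6203, 53.3, 289.9, 482, 411, 897, 696 and 747 in mice 1 to 8. Mouse 1 was highest, several times above the next, mouse 6, and mouse 2 was lowest by a similar step, with the 6 others between them. Cyp8b1, which adds the hydroxyl group that makes cholic acid and so sets the bile acid mixture, had 5865, 1005, 849, 1676, 1487, 1780, 2621 and 1731. The same mouse was highest, but the lowest was mouse 3. Across 8 mice Cyp7a1 and Cyp8b1 correlated on the log2 scale with r = 0.88 (exact permutation p = 0.0091, adjusted p = 0.0455) and rho = 0.905 (exact permutation p = 0.00456, adjusted p = 0.0228), adjusted over the 10 pairs tested. Without mouse 1 the relation had r = 0.711 (exact permutation p = 0.0742, adjusted p = 0.344) and rho = 0.857 (exact permutation p = 0.0238, adjusted p = 0.119), so it no longer passed. Leaving out mice 1 and 2, the farthest from the median, gave r = 0.79 over 6 mice.

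Cyp27a1, the mitochondrial enzyme that opens the alternative route to bile acids, had 7646, 2898, 2690, 3109, 2982, 3212, 4540 and 2958 in mice 1 to 8. It was high in mice 1 and 7 and nearly level in the rest. With Cyp7a1 it gave r = 0.783 (exact permutation p = 0.0213, adjusted p = 0.0532) and rho = 0.786 (exact permutation p = 0.0279, adjusted p = 0.0931), which did not pass, and r = 0.403 (exact permutation p = 0.246, adjusted p = 0.492) and rho = 0.679 (exact permutation p = 0.11, adjusted p = 0.365) without mouse 1. Without mice 1 and 2 r was 0.508. Nr0b2, the repressor downstream of FXR, had 272, 648, 659, 397, 415, 493, 636 and 572. Mouse 1, with the most Cyp7a1, had the least Nr0b2, and mouse 2, with the least Cyp7a1, was among the highest. The pair gave r = -0.724 (exact permutation p = 0.0533, adjusted p = 0.0621) and rho = -0.619 (exact permutation p = 0.115, adjusted p = 0.221). In 7 mice it had r = -0.359 (exact permutation p = 0.487, adjusted p = 0.608) and rho = -0.429 (exact permutation p = 0.354, adjusted p = 0.659), and without mice 1 and 2 r was -0.00125, so the inverse relation rested on those 2 mice.

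**Figure D2:**
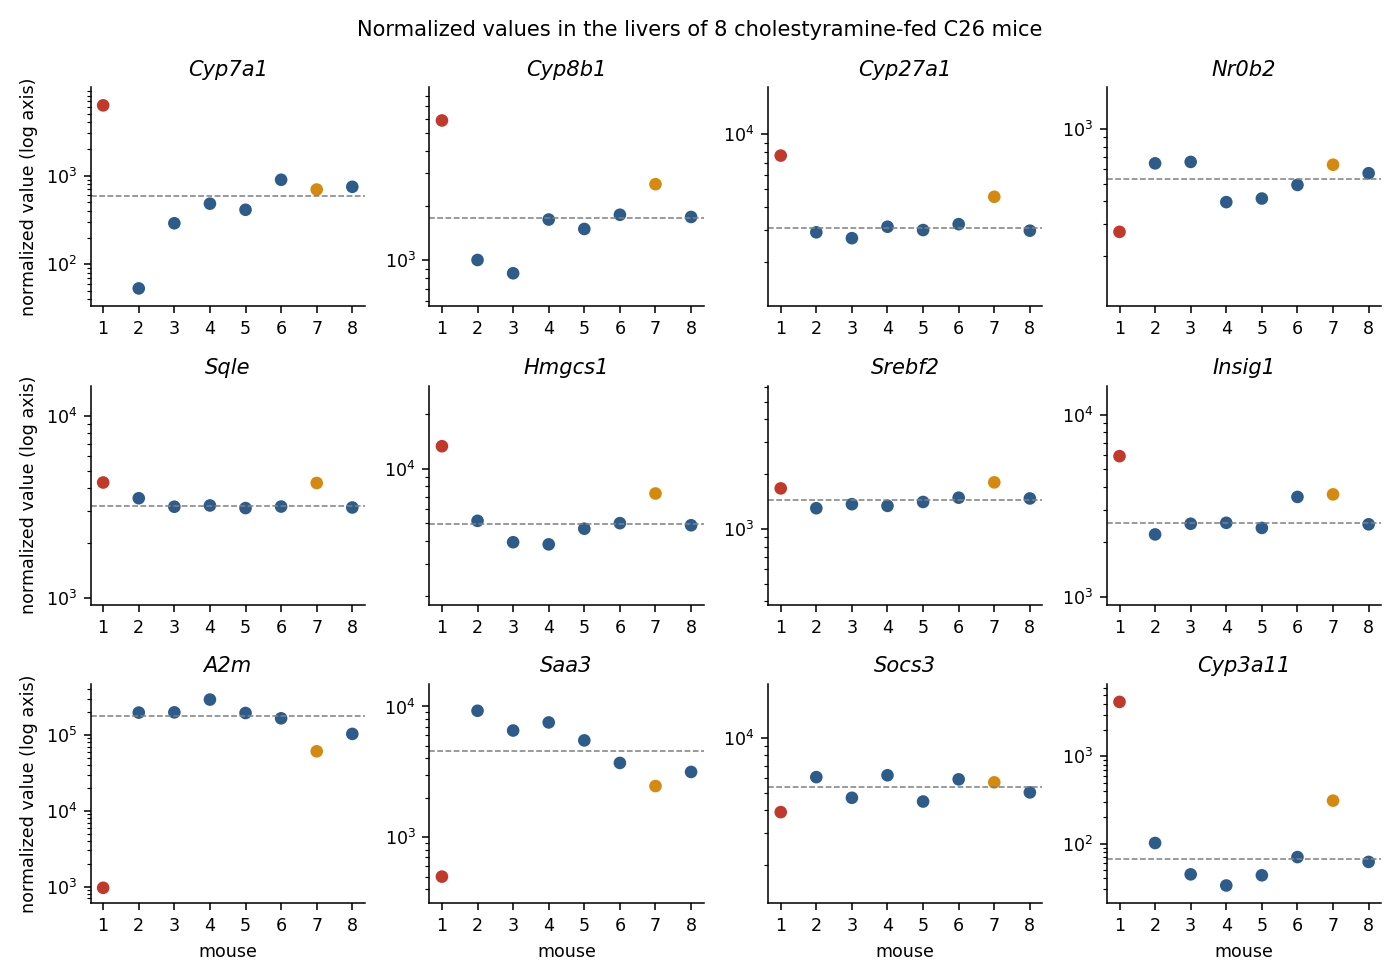
Normalized value (log axis) of 12 genes in each of the 8 mice, with the median as a dashed line; mouse 1 is red, mouse 7 orange and the others blue. Mouse 1 is highest for Cyp7a1, Cyp8b1, Cyp27a1 and Cyp3a11 and lowest for Nr0b2, A2m and Saa3, and mouse 7 lies toward mouse 1 for Cyp8b1, Cyp27a1, Hmgcs1, A2m and Cyp3a11.

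Nr1h4, Slc10a1 and Abcb11 varied less than Cyp7a1 and Cyp8b1. Nr1h4, which encodes FXR, had lowest, median and highest values of 1638, 2322 and 3146, Slc10a1, the sodium-dependent uptake carrier, 3983, 4585 and 6963, and Abcb11, the bile salt export pump, 4920, 5505 and 9737. For each of the 3 genes the highest value was that of mouse 1. Slco1a1, an organic anion uptake carrier, spread far more: 1618, 211, 97, 75.3, 139, 140.2, 372 and 152 in mice 1 to 8, with mouse 1 highest and mouse 7 next.

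Every tested gene was then fitted against log2 Cyp7a1 with limma, which gives a slope, the log2 change of a gene per doubling of Cyp7a1. Calls were made at an adjusted p under 0.05 (Benjamini-Hochberg, over all genes). Of 13989 genes, 1 was called in 8 mice and 0 in 7, while 1712 and 810 had an unadjusted p under 0.05. In 7 mice edgeR's quasi-likelihood test also called 0, with 842 at an unadjusted p under 0.05. The called gene was Gamt, the last enzyme of creatine synthesis, with values of 2244, 458, 671, 699, 961, 991, 976 and 884. It was highest in mouse 1 and lowest in mouse 2, as Cyp7a1 was, with a slope of 0.33 ± 0.035 (SE, as after every slope here; n = 8), limma adjusted p = 0.0319. In 7 mice its slope was 0.27 ± 0.046, adjusted p = 0.823. The 3 smallest p with a positive slope in 7 mice belonged to Gamt, Upp2 (uridine phosphorylase, slope 0.49 ± 0.089, adjusted p = 0.823) and Por (the electron donor of liver P450 enzymes, 0.30 ± 0.055, adjusted p = 0.823). With a negative slope they were Insig2, which retains the SREBP escort in the endoplasmic reticulum (-0.20 ± 0.037, adjusted p = 0.823), Derl3, of the degradation machinery there (-0.35 ± 0.078, adjusted p = 0.834), and Arsg (-0.15 ± 0.034, adjusted p = 0.834). None of the 6 was called in 7 mice, and without mouse 2 as well Derl3 had -0.18 and Arsg -0.26. In 8 mice the smallest p with a negative slope belonged to Saa3, Rfk and Cyp17a1, also not called. Cyp17a1, a steroid hydroxylase, had 69.7, 5328, 4806, 4119, 1850, 1454, 966 and 1719 in mice 1 to 8, lowest in mouse 1 and highest in mouse 2, with a slope of -0.94 ± 0.15, adjusted p = 0.113 in 8 mice and -0.52 ± 0.15, adjusted p = 0.834 in 7. Nr1h4 had slopes of 0.14 ± 0.03, adjusted p = 0.146 in 8 mice and 0.14 ± 0.044, adjusted p = 0.834 in 7.

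By list, in 8 mice, 4 of 15 tested bile acid synthesis genes and 15 of 20 sterol synthesis genes had positive slopes with an unadjusted p under 0.05, against 5.91% of all genes. The 4 bile acid genes were Cyp8b1 (0.40 ± 0.069, adjusted p = 0.113 in 8 mice and 0.28 ± 0.093, adjusted p = 0.834 in 7), Akr1d1, the steroid 5-beta reductase (0.35 ± 0.072, adjusted p = 0.127 in 8 mice and 0.47 ± 0.096, adjusted p = 0.823 in 7), Akr1c6 (0.34 ± 0.075, adjusted p = 0.146 in 8 mice and 0.15 ± 0.08, adjusted p = 0.847 in 7) and Cyp27a1 (0.21 ± 0.054, adjusted p = 0.174 in 8 mice and 0.07 ± 0.057, adjusted p = 0.887 in 7). Without mouse 2 alone the slopes were 0.20 for Akr1d1, 0.52 for Akr1c6 and 0.34 for Cyp27a1. Negative slopes of that kind were found for 19 of 26 acute phase genes and 14 of 18 chaperones of the endoplasmic reticulum, against 6.33% of all genes. Without mouse 1 these counts were 2 of 15, 1 of 20, 2 of 26 and 8 of 18. The shares of all genes were then 3.82% for positive and 1.98% for negative slopes. In the opposite direction, 1 bile acid gene had a negative slope of that kind in 8 mice and 1 chaperone a positive slope in 7. That chaperone was Herpud1 (0.15 ± 0.031, adjusted p = 0.823), with the smallest p of its list. The count of 8 chaperones with negative slopes was lower in some other fits. It was 0 without mice 1 and 2, when 248 of all 13962 genes had such slopes. It was 2 without mice 1 and 6 (123 of 13965 genes) or 1 and 8 (223 of 13935). Without mice 1 and 5 it was 3 (288 of 13920), and with depth as a covariate 0 (291 of 13956).

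Clock genes and mitochondrially encoded mRNAs had more members with an unadjusted p under 0.05 against Cyp7a1 without mouse 1 than with it. The mitochondrial mRNAs had 0 of 13 in 8 mice and 6 of 13 in 7. All 6 had negative slopes, against 1.98% of all genes. The count was 0 when mouse 2 was left out too. It was 2 when mouse 6 was, against 123 of all 13965 genes, and 2 with depth as a covariate, against 291 of 13956. Cyp7a1 is itself under circadian control in mouse liver. In 7 mice, 8 of 15 tested clock genes had positive and 2 negative slopes with an unadjusted p under 0.05, against 3.82% and 1.98% of all genes. In 8 mice the counts were 5 and 1, against 5.91% and 6.33%. None was called. Per2, a period gene of the repressor arm, had 516, 468, 609, 667, 954, 1364, 977 and 1205 in mice 1 to 8, and Per3, of the same arm, 702, 298, 521, 381, 715, 715, 737 and 802. Apart from mouse 1, mice 2 to 4 held the lower and mice 5 to 8 the higher values of Per2. The 7-mouse slopes were 0.35 ± 0.07, adjusted p = 0.823 for Per2, 0.33 ± 0.079, adjusted p = 0.834 for Per3, 0.15 ± 0.039, adjusted p = 0.834 for Cry2, a second repressor, and 0.18 ± 0.042, adjusted p = 0.834 for Tef, a clock output factor. Chosen after its values were seen, Nr1d1, which encodes the nuclear receptor REV-ERB alpha, had 1548, 797, 814, 882, 256, 229, 400.2 and 357 and ran the other way, at 797 to 882 in mice 2 to 4 and 229 to 400.2 in mice 5 to 8. Its 7-mouse slope was -0.36 ± 0.16, adjusted p = 0.847. Without mouse 2 as well the slopes were 0.65 for Per2 and -0.81 for Nr1d1. The positive count was 4 of 15 when mouse 2 was left out as well, against 196 of all 13962 genes. It was 7 or 8 when any other mouse was left out, against 276 to 715 of all genes. With depth as a covariate it was 5, against 309 of 13956. Whether mice were collected at different hours is not given in the labels, and the part of collection time was not tested.

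**Figure D3:**
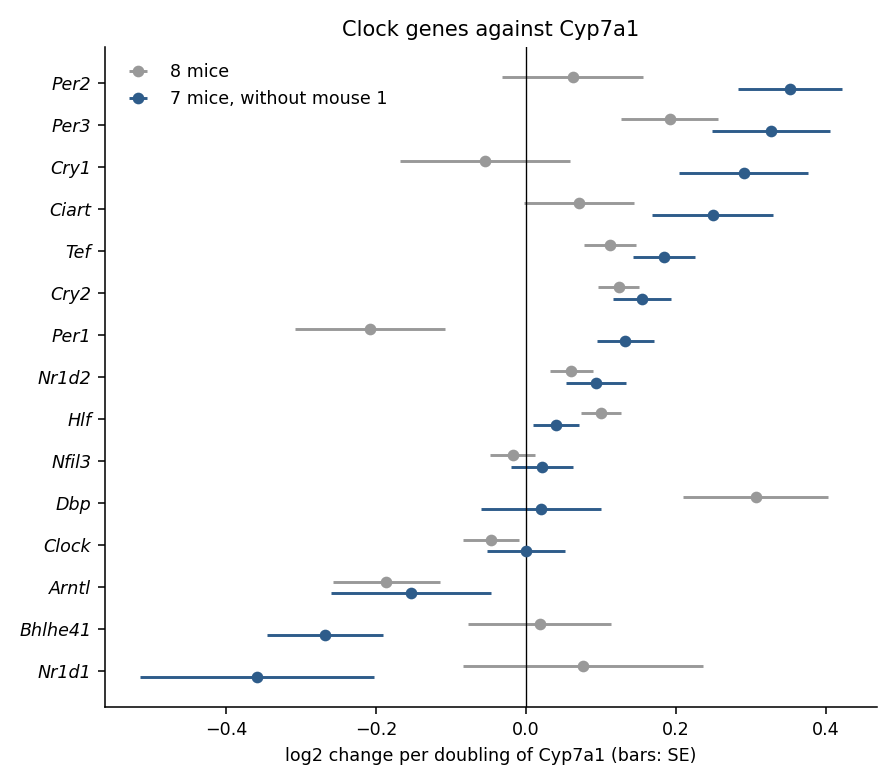
Slope of each of the 15 tested clock genes against Cyp7a1 (log2 change per doubling of Cyp7a1; bars are SE) in 8 mice (grey) and in 7 mice without mouse 1 (blue). Per2, Per3, Cry1 and Ciart move to the right and Nr1d1 and Bhlhe41 to the left of 0 when mouse 1 is left out.

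The genes of cholesterol synthesis varied together. The mean correlation between 2 genes of the 20-gene list was 0.877 over 8 mice and 0.694 over 7, against 0.0015 and 0.0021 between all tested genes. Of the 20, 15 had an entry in the RefSeq promoter table for GRCm38.p6. The 250 bases before the RefSeq start of Hmgcs1, Nsdhl and Cyp51 are shown, 5′ to 3′ on the gene's strand. They were chosen because Nsdhl and Cyp51 had the smallest p of the block in the fit described next and Hmgcs1 holds both motifs. For Cyp51 the GENCODE start, 4104746, lies inside the window shown, and its marked CCAAT lies downstream of that start. Capitals mark CCAAT or its reverse complement ATTGG, the box bound by NF-Y, and CACCCCAC or its reverse complement GTGGGGTG, a published form of the sterol response element.
Hmgcs1, chr13:119690101-119690350, plus strand: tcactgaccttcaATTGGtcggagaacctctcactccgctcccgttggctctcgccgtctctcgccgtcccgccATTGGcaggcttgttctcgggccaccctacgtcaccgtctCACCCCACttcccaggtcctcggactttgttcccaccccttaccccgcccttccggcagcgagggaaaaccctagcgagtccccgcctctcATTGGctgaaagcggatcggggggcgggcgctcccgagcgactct
Nsdhl, chrX:72918271-72918520, plus strand: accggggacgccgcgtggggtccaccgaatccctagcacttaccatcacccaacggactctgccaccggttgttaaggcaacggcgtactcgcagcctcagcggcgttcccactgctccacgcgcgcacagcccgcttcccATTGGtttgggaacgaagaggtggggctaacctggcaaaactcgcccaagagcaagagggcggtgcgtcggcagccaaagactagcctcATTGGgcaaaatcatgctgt
Cyp51, chr5:4104698-4104947, minus strand: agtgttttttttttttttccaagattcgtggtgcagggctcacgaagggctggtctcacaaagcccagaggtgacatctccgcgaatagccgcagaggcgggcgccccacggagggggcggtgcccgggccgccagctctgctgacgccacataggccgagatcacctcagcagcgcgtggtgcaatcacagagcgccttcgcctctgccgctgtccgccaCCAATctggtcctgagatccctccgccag
CCAAT on either strand was present in 13 of the 15 sterol synthesis promoters (86.7%) and in 36.3% of 10152 tested genes with an entry. CACCCCAC on either strand was present in 2 of the 15 (13.3%) and in 2.65% of tested genes. A match describes these letters only.

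Sqle, squalene epoxidase (chromosome 15, 59315077 to 59331192), had 4296, 3521, 3162, 3213, 3109, 3169, 4269 and 3132 in mice 1 to 8. Mice 1 and 7 were nearly equal and high, mouse 2 lay between, and the other 5 lay close together below. Sqle therefore spanned less than a doubling, and slopes per doubling of Sqle below reach beyond the measured range. Hmgcs1, which makes the precursor of mevalonate, had 13282, 5170, 3944, 3839, 4679, 5020, 7305 and 4888, with mouse 1 far above mouse 7 and mouse 7 above the rest. Fdps, the farnesyl diphosphate synthase, had 11155, 4034, 2463, 2846, 2630, 3101, 5449 and 2924. Cyp51, the lanosterol demethylase, had 6294, 3265, 2554, 2586, 2845, 3136, 4606 and 2884. Nsdhl, a later enzyme of the same stretch, had 3222, 1334, 969.5, 1051, 975, 981, 1806 and 971. The order was the same in all: mouse 1, then mouse 7, then mouse 2, with the others close together.

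In the fit against Sqle, 235 genes were called in 8 mice (133 with positive and 102 with negative slopes) and 11 in 7 mice (4 and 7). Of the 235, 234 kept their sign with an unadjusted p under 0.05 in 7 mice and 9 were called there. The sterol block led: 11 of 19 tested members were called with positive slopes in 8 mice, against 0.951% of all genes, and the list's median slope was 1.86 against -0.02 for all genes. The steepest of the 4 with the smallest p was Fdps at 3.39 ± 0.48, adjusted p = 0.0306. Nsdhl had 2.93 ± 0.38, adjusted p = 0.0262, Cyp51 2.13 ± 0.3, adjusted p = 0.0306 in 8 mice and 1.61 ± 0.28, adjusted p = 0.114 in 7 and Mvk, mevalonate kinase, 1.81 ± 0.26, adjusted p = 0.0306 in 8 mice and 1.47 ± 0.29, adjusted p = 0.144 in 7. In 7 mice 3 of 19 were called, Nsdhl (2.05 ± 0.21, adjusted p = 0.0445), Tm7sf2, a sterol reductase (1.72 ± 0.22, adjusted p = 0.0456), and Fdps (2.30 ± 0.3, adjusted p = 0.0456), and 16 of 19 had positive slopes with an unadjusted p under 0.05, against 6.94% of all genes. That count was 4 when mouse 7 was left out too, against 508 of all 13970 genes. In 8 mice, leaving out mouse 3, 4, 5, 6 or 8 alone gave 0 called genes, and leaving out mouse 7 gave 1331. In 7 mice, leaving out any 1 of mice 3 to 8 gave 0 called genes and leaving out mouse 2 gave 39.

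Outside the sterol pathway, Cyp4a12a and Cyp4a12b, fatty acid hydroxylases of male mouse liver with near-identical sequences, rose with Sqle in 8 mice. Cyp4a12a had 8484, 5022, 3963, 3350, 3925, 3491, 6765 and 3944 and a slope of 2.30 ± 0.27, adjusted p = 0.0224 in 8 mice and 1.97 ± 0.31, adjusted p = 0.0707 in 7. Scd1, the stearoyl-CoA desaturase, was the other gene called upward in 7 mice. Its values were 76717, 2636, 745, 1167, 579, 909, 5240 and 1177, a wider range than any sterol gene, with mouse 1 far above mice 7 and 2. Its slope was 10.31 ± 1.7, adjusted p = 0.041 in 8 mice and 6.25 ± 0.8, adjusted p = 0.0456 in 7, and 10.26 without mouse 7 as well. Cyp3a11, a major drug and bile acid hydroxylase, had 4192, 102, 44.4, 33.1, 43.4, 70.1, 310.3 and 61.7, again with mice 1, 7 and 2 on top, and a slope of 10.19 ± 1.7, adjusted p = 0.041 in 8 mice and 5.99 ± 0.86, adjusted p = 0.0632 in 7. Cyp2b10, a target of the receptor CAR, was not tested because its mean lay under 10.

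Of the regulators of the pathway, Srebf2 and Insig1 did not pass the threshold against Sqle. Srebf2 had 1668, 1298, 1366, 1338, 1405, 1484, 1801 and 1469, highest in mouse 7. With Sqle it gave r = 0.784 (exact permutation p = 0.0348, adjusted p = 0.058) and rho = 0.309 (exact permutation p = 0.462, adjusted p = 0.501) in 8 mice and r = 0.72 (exact permutation p = 0.138, adjusted p = 0.344) and rho = 0 (exact permutation p = 1, adjusted p = 1) in 7, but r was -0.715 without mice 1 and 7. Insig1, the feedback inhibitor of SREBP processing, had 5917, 2199, 2517, 2546, 2388, 3534, 3649 and 2499, with mice 1, 7 and 6 on top and a slope of 1.78 ± 0.53, adjusted p = 0.0996 in 8 mice and 0.87 ± 0.52, adjusted p = 0.529 in 7.

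In 8 mice the smallest p among genes that fell with Sqle belonged to Ntn4 (netrin 4, -2.73 ± 0.3, adjusted p = 0.0224 in 8 mice and -2.87 ± 0.39, adjusted p = 0.0465 in 7), Cavin2 (-2.33 ± 0.27, adjusted p = 0.0224) and Inhbb, an activin subunit, with 78.3, 433, 517, 416, 482, 358, 117 and 435 in mice 1 to 8 and -4.89 ± 0.56, adjusted p = 0.0224 in 8 mice and -4.06 ± 0.62, adjusted p = 0.0703 in 7. Of the 6 with the smallest p in 7 mice, Cavin2, a caveolar protein, had 149, 225, 262, 262, 289.7, 269.6, 115 and 263, F8, coagulation factor VIII made by sinusoidal endothelium, 413, 424, 557, 506, 589.5, 639, 294 and 588, and Calcrl, a receptor of endothelium, 335, 301, 351, 340.4, 375, 398, 198 and 393. Mouse 7 was lowest for all 3. Their 7-mouse slopes were -2.70 ± 0.3, adjusted p = 0.0445, -2.27 ± 0.28, adjusted p = 0.0456 and -2.06 ± 0.27, adjusted p = 0.0456, and Ptprb, an endothelial phosphatase, had -1.78 ± 0.24, adjusted p = 0.0456. The other 2 were Rapgef5 and Colec10, with slopes of -3.30 ± 0.44 and -2.39 ± 0.32. Without mouse 7 as well Cavin2 had -1.67 and Colec10 -1.09. For Inhbb, leaving out 1 more of the 7 mice gave slopes from -4.35 to -0.38. In 7 mice, 10 of 12 endothelial markers and 7 of 12 stellate and fibroblast markers had negative slopes with an unadjusted p under 0.05, against 5.81% of all genes. The summed value of the endothelial markers was 6570 in mouse 7 and 7788 to 11009 in the others, and that of the stellate and fibroblast markers 5583 against 8190 to 11353, with no marker of either list at 0 in any mouse. Leaving out mouse 7 as well brought both counts to 0. Their part in the relations with Sqle was not tested further.

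The acute phase varied most through A2m, the broad protease inhibitor alpha-2-macroglobulin (chromosome 6, 121635376 to 121679227). Its values were 967, 196910, 198300, 292250, 194500, 165490, 60842 and 103130 in mice 1 to 8. Mouse 1 was lowest by a wide margin and mouse 7 next lowest, and the others lay between 103130 and 292250. Saa3, an inflammatory serum amyloid A made in liver and macrophages, had 499, 9273, 6547, 7550, 5502, 3699, 2461 and 3156 and the same 2 mice at the bottom. The pair gave r = 0.953 (exact permutation p = 0.000521, adjusted p = 0.00521) and rho = 0.929 (exact permutation p = 0.00223, adjusted p = 0.0223), the strongest of the 10. Without mouse 1 it had r = 0.872 (exact permutation p = 0.00536, adjusted p = 0.0536) and rho = 0.893 (exact permutation p = 0.0123, adjusted p = 0.119), just short of the threshold. Without mice 1 and 7 r was 0.792. Saa1, by contrast, the abundant plasma form, had 530460, 637240 and 693210 as lowest, median and highest values and a slope on A2m of 0.03 ± 0.026, adjusted p = 0.487 in 8 mice and -0.03 ± 0.1, adjusted p = 0.953 in 7; Saa1 and Saa2 are near-identical copies, so its single-gene value is uncertain.

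Signalling genes upstream of the acute phase were flatter than A2m. Socs3, the feedback inhibitor of the interleukin 6 receptor, had 3905, 6080, 4682, 6225, 4465, 5913, 5691 and 5010, with mouse 1 lowest. With A2m it gave r = 0.668 (exact permutation p = 0.0542, adjusted p = 0.0621) and rho = 0.524 (exact permutation p = 0.197, adjusted p = 0.281) and r = 0.0664 (exact permutation p = 0.888, adjusted p = 0.888) and rho = 0.286 (exact permutation p = 0.556, adjusted p = 0.794) without mouse 1. Without mice 1 and 7 r was 0.352. Stat3 had 5712, 6421 and 7069 as lowest, median and highest values and a slope of 0.03 ± 0.015, adjusted p = 0.313 in 8 mice and -0.01 ± 0.057, adjusted p = 0.977 in 7. Of the interleukin 6 and STAT3 list, 6 of 16 were called with positive slopes on A2m, against 5.64% of all genes, led by Osmr, the oncostatin M receptor, at 0.18 ± 0.015, adjusted p = 8.5e-05 in 8 mice and 0.19 ± 0.058, adjusted p = 0.237 in 7, and Cebpd, an inducible transcription factor, at 0.21 ± 0.02, adjusted p = 0.000162 in 8 mice and 0.14 ± 0.076, adjusted p = 0.517 in 7. In 7 mice none was called.

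Against A2m, 1478 genes were called in 8 mice, 789 with positive and 689 with negative slopes, and 8 in 7 mice (7 and 1). Of the 1478, 1269 kept their sign in 7 mice, 432 of them with an unadjusted p under 0.05, and 5 were called there. Leaving out any mouse other than mouse 1 left 1105 to 1615 calls. The 6 genes with the smallest p and a positive slope were Cd28, Atp6v0a4, Cyb561, Igfbp1, Acpp and Slc10a6. Cd28, known as a costimulatory receptor of T cells, had 2.35, 129, 207, 159, 179.9, 164, 61.7 and 123, nearly absent in mouse 1, with a slope of 0.73 ± 0.039, adjusted p = 9.7e-06 in 8 mice and 0.64 ± 0.15, adjusted p = 0.151 in 7. Igfbp1, a hepatocyte binding protein that limits free IGF-1, had 1025, 6268, 5689, 5444, 5846, 4388, 4050 and 4142 and 0.31 ± 0.02, adjusted p = 2.2e-05 in 8 mice and 0.27 ± 0.081, adjusted p = 0.227 in 7. T, B and NK cell markers summed to 42.4 to 188 and were highest in mouse 1, where Cd28 was lowest.

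The 6 with a negative slope were Car3, Keg1, Pklr, Tsc22d1, Tkfc and Hsd3b5. Car3, carbonic anhydrase 3, a marker of healthy adult liver, had 9793, 94, 107, 139.6, 140.2, 217, 416 and 281 in mice 1 to 8. Mouse 1 was highest and mouse 7 next, and the slope was -0.80 ± 0.044, adjusted p = 9.7e-06. Pklr, liver pyruvate kinase, had 3753, 805, 736, 790.2, 886, 739, 1105 and 852 and -0.29 ± 0.019, adjusted p = 2.2e-05. Hsd3b5, a male-type steroid dehydrogenase, had 1356, 17.8, 17.2, 15.1, 8.3, 29.7, 53.8 and 23.3 and -0.82 ± 0.06, adjusted p = 4.6e-05. In 7 mice these 3 had slopes of -0.89 ± 0.18, adjusted p = 0.121, -0.21 ± 0.071, adjusted p = 0.289 and -0.84 ± 0.26, adjusted p = 0.242, and without mouse 7 as well Pklr had -0.06 and Hsd3b5 -0.55.

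Group by group in 8 mice, 18 of 25 acute phase genes and 11 of 18 chaperones of the endoplasmic reticulum rose with A2m, against 5.64% of all genes. Steap4, a metalloreductase, had 0.19 ± 0.018, adjusted p = 0.000159 in 8 mice and 0.12 ± 0.067, adjusted p = 0.569 in 7, Lcn2, lipocalin 2, 0.18 ± 0.026, adjusted p = 0.00168 in 8 mice and 0.11 ± 0.1, adjusted p = 0.738 in 7, and Hspa5, the chaperone BiP, 0.12 ± 0.018, adjusted p = 0.00214 in 8 mice and 0.02 ± 0.065, adjusted p = 0.932 in 7. Asns, asparagine synthetase, a target of the stress factor ATF4, had 50.1, 343, 368, 469.9, 205, 226, 181 and 338 in mice 1 to 8 and a slope of 0.35 ± 0.045, adjusted p = 0.000952 in 8 mice and 0.43 ± 0.18, adjusted p = 0.39 in 7; it was 1 of 4 amino acid stress genes that rose, of 14 tested. Of 12 glucocorticoid targets 6 rose, led by Fkbp5 (0.26 ± 0.021, adjusted p = 5.9e-05 in 8 mice and 0.21 ± 0.081, adjusted p = 0.35 in 7) and Zbtb16 (0.49 ± 0.059, adjusted p = 0.000564 in 8 mice and 0.65 ± 0.23, adjusted p = 0.314 in 7). Members that fell, against 4.93% of all genes, numbered 18 of 20 in sterol synthesis, 12 of 16 in fatty acid and triglyceride synthesis, 12 of 21 in drug metabolism phase 1 (1 rose) and 9 of 18 in phase 2 (2 rose). Members also fell among pericentral genes (7 of 13), glucose metabolism (5 of 12), bile acid transport (4 of 10, 1 rose), interferon response (6 of 19) and bile acid synthesis (5 of 16, 2 rose). Sc5d, a late sterol desaturase, had -0.16 ± 0.013, adjusted p = 5.9e-05 in 8 mice and -0.16 ± 0.052, adjusted p = 0.251 in 7, Hmgcs1 -0.21 ± 0.023, adjusted p = 0.000369 in 8 mice and -0.36 ± 0.077, adjusted p = 0.137 in 7, Acaca, which makes malonyl-CoA, -0.16 ± 0.014, adjusted p = 8.5e-05 in 8 mice and -0.11 ± 0.054, not called, in 7, and Cyp3a11 -0.83 ± 0.071, adjusted p = 9.7e-05 in 8 mice and -1.19 ± 0.26, adjusted p = 0.141 in 7. Alb had -0.002 ± 0.037, adjusted p = 0.983 in 8 mice and -0.04 ± 0.15, adjusted p = 0.952 in 7 and Igf1 0.03 ± 0.024, adjusted p = 0.443 in 8 mice and -0.17 ± 0.071, adjusted p = 0.38 in 7, and neither was called.

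**Figure D4:**
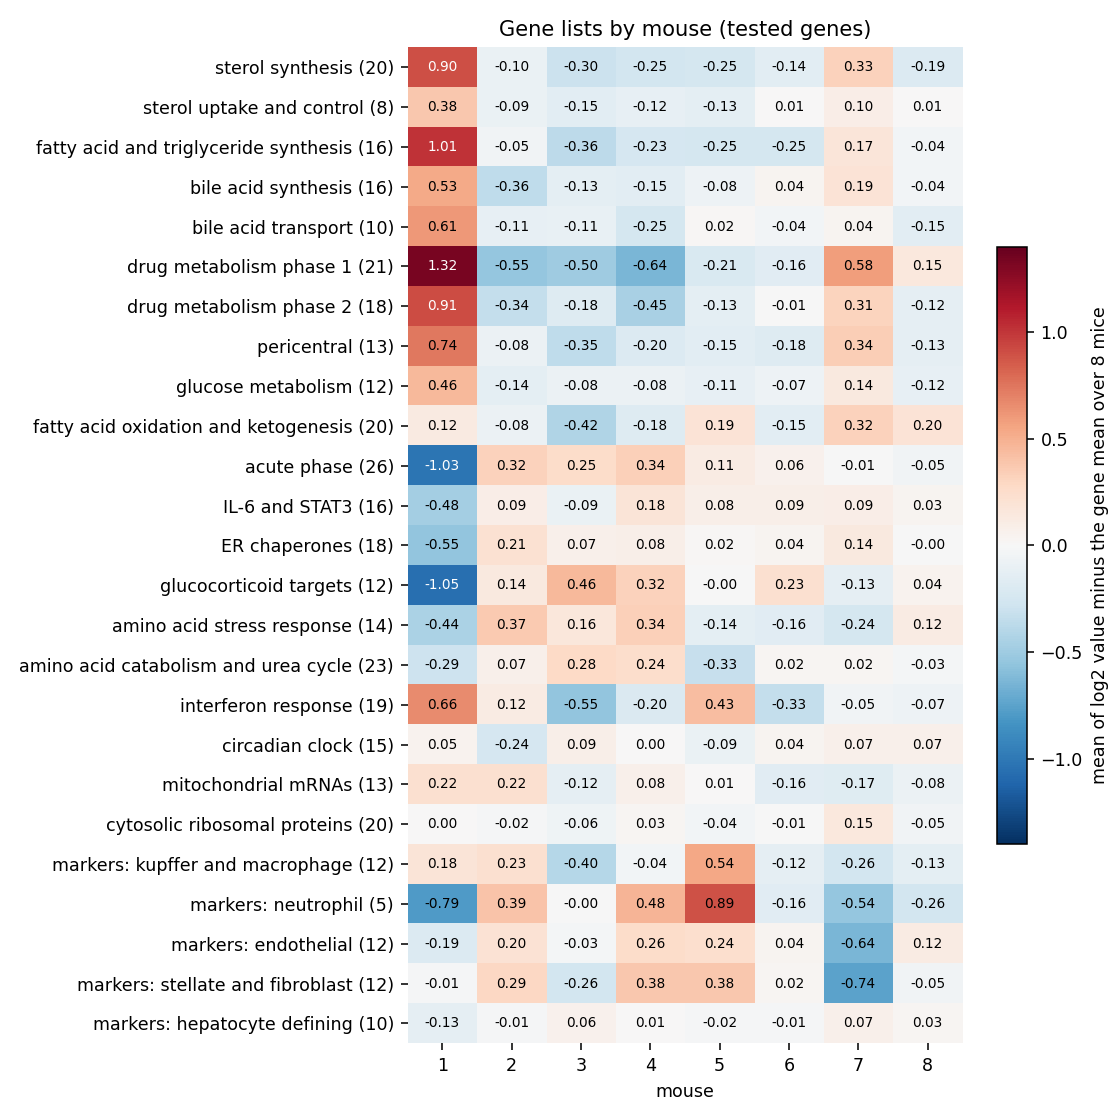
Mean of log2 value minus each gene's mean over 8 mice, for 25 gene lists (number of tested genes in brackets) in each mouse; red is above and blue below the gene means. Mouse 1 holds the extreme of most metabolic and acute phase lists, mouse 7 the lowest endothelial and stellate values, and mouse 5 the highest macrophage and neutrophil values.

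Without mouse 1, acute phase genes with positive slopes and an unadjusted p under 0.05 numbered 4 of 25, against 6.27% of all genes: Saa3 (0.82 ± 0.15, adjusted p = 0.104), Cd14 (0.82 ± 0.21, adjusted p = 0.184), Lbp (0.23 ± 0.078, adjusted p = 0.302) and Cp (0.26 ± 0.11, adjusted p = 0.393). No chaperone of the endoplasmic reticulum had one. Glucocorticoid targets had 6 of 12 (0 without mouse 7 as well). On the negative side, against 5.33% of all genes, the counts were 15 of 21 for drug metabolism phase 1, 13 of 20 for sterol synthesis and 10 of 20 for fatty acid oxidation and ketogenesis, which had 5 of 20 called in 8 mice. Cyp1a2, an oxidizing enzyme of pericentral hepatocytes, had 5785, 1589, 1594, 1305, 1274, 1816, 2778 and 2049 and a 7-mouse slope of -0.49 ± 0.07, adjusted p = 0.0504. Cyp2c50 had -0.99 ± 0.14, adjusted p = 0.0504, and Cyp4a14, a fatty acid hydroxylase, had -0.92 ± 0.19, adjusted p = 0.121; Cyp2c genes have near-identical copies. With mouse 7 also left out these 3 counts were 5, 0 and 3, when 286 of all 13970 genes had such a slope. The slope of Cyp2c50 was then -0.57. That of Lbp was then 0.42.

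Slc10a6, a steroid sulfate carrier induced in inflamed liver, had 2.35, 179, 237, 255, 156, 116, 33.5 and 75.7 in mice 1 to 8. Mice 2 to 5 were high, mouse 7 low and mouse 1 near 0, as for A2m, and the 7-mouse slope was 1.33 ± 0.12, adjusted p = 0.0043. Pfkfb3, an inducible activator of glycolysis, had 135, 845, 657, 1023, 673, 633, 264 and 355 and 0.90 ± 0.077, adjusted p = 0.0043. Selp, P-selectin, an adhesion protein of activated endothelium and platelets, had 44.6, 144, 116, 174, 134, 116, 33.5 and 80.3 and 1.01 ± 0.11, adjusted p = 0.012. Tnfaip3, the feedback inhibitor A20 of NF-kB, had 47, 234, 272, 331, 332, 239, 98.7 and 155 and 0.81 ± 0.095, adjusted p = 0.0167. Dmbt1 and Serpina3i had 2.24 ± 0.3, adjusted p = 0.0451 and 0.65 ± 0.089, adjusted p = 0.0461, and the other called gene that rose, outside the naming rule, was Spink1. Dmbt1 was highest in mouse 4, the mouse with pancreatic enzymes and the most A2m. All 8 tested pancreatic markers had positive slopes on A2m in 7 mice, 0 of them with an unadjusted p under 0.05. The part of pancreatic RNA in these calls was not tested. The 1 gene that fell was Prss8, a membrane serine protease, with 104, 44, 56.6, 34.1, 60.9, 60.6, 174 and 74.5 and -0.93 ± 0.13, adjusted p = 0.0461. It was highest in mouse 7. When mouse 7 was left out of the 7, 1 gene was called, and without mouse 4 there were 2.

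Cell type markers moved with A2m in 7 mice as well. Positive slopes with an unadjusted p under 0.05 were found for 11 of 12 endothelial markers, 10 of 12 stellate and fibroblast markers and 4 of 5 tested neutrophil markers, against 6.27% of all genes. Each count was 1 without mouse 7 as well, when 406 of all 13970 genes had such slopes. Of 5 tested bile duct markers, 3 had such slopes. With 1 more of the 7 mice left out 0 to 4 did, against 406 to 967 of all genes. Neutrophil markers summed to 198 to 556, lowest in mouse 1 and highest in mouse 5, and 1 to 3 of their 12 members were at 0 in 7 of the mice. Kupffer cell and macrophage markers, which summed to 10225 to 17964, had none in either direction. Selp is itself an endothelial gene. The part of these cells in the relations with A2m was not tested.

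The 3 tracked genes were also set against each other. Cyp7a1 and Sqle, the entries to bile acid and late sterol synthesis, gave r = 0.438 (exact permutation p = 0.344, adjusted p = 0.344) and rho = 0.286 (exact permutation p = 0.501, adjusted p = 0.501), and r = -0.0657 (exact permutation p = 0.82, adjusted p = 0.888) and rho = -0.0714 (exact permutation p = 0.906, adjusted p = 1) without mouse 1. Without mice 1 and 2 r was 0.279. Mouse 2 had the lowest Cyp7a1 and the third highest Sqle. Cyp7a1 and A2m gave r = -0.782 (exact permutation p = 0.0289, adjusted p = 0.0577) and rho = -0.738 (exact permutation p = 0.0458, adjusted p = 0.115), with r = -0.387 (exact permutation p = 0.364, adjusted p = 0.607) and rho = -0.607 (exact permutation p = 0.167, adjusted p = 0.417) in 7 mice and r = -0.526 without mice 1 and 2. Sqle and A2m gave r = -0.754 (exact permutation p = 0.0194, adjusted p = 0.0532) and rho = -0.381 (exact permutation p = 0.36, adjusted p = 0.45), with r = -0.693 (exact permutation p = 0.111, adjusted p = 0.344) and rho = -0.0714 (exact permutation p = 0.906, adjusted p = 1) in 7 mice. Without mice 1 and 7 r was 0.251, so the inverse relation of Sqle itself and A2m rested on those 2 mice. The slopes of Hmgcs1 and Sc5d on A2m stayed negative when 1 more of the 7 mice was left out. They were -0.41 to -0.23 for Hmgcs1 and -0.19 to -0.13 for Sc5d, but neither gene was called in 7 mice. The 13 sterol synthesis genes with a negative slope on A2m and an unadjusted p under 0.05 in 7 mice became 0 without mouse 7. Of the 10 pairs, 2 passed in 8 mice (Cyp7a1 with Cyp8b1 and A2m with Saa3) and 0 in 7. There 1 had an unadjusted p under 0.05 by Pearson's r (A2m with Saa3) and 2 by Spearman's rho (that pair and Cyp7a1 with Cyp8b1).

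**Figure D5:**
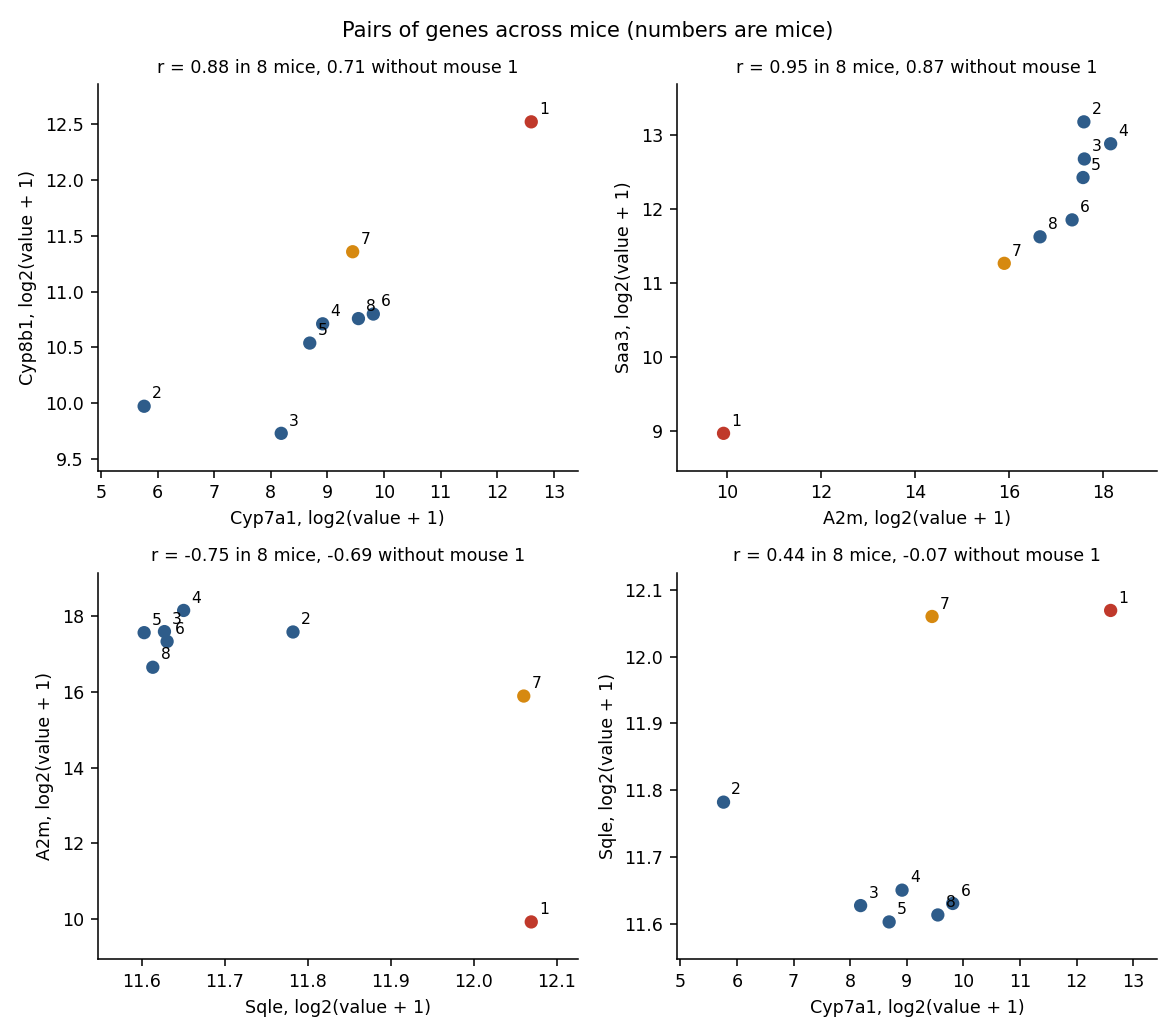
Log2(value + 1) of 4 pairs of genes, 1 point per mouse with its number; mouse 1 is red and mouse 7 orange. Cyp7a1 with Cyp8b1 and A2m with Saa3 rise together also among the blue points. The relation of Sqle with A2m rests on mice 1 and 7, and that of Cyp7a1 with Sqle has r = -0.066 without mouse 1.

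Of 9 relations of library measures with the 3 genes, 1 passed in 8 mice, and by Pearson's r only. Over 8 mice the share of reads in the 10 most abundant genes had r = -0.848 with Cyp7a1 (exact permutation p = 0.00523, adjusted p = 0.0471 over 9 tests; rho = -0.643, exact p = 0.0962, adjusted p = 0.288) and r = 0.966 with A2m (exact permutation p = 0.0119, adjusted p = 0.0534; rho = 0.762, exact p = 0.0368, adjusted p = 0.206). A2m was not itself among those 10 genes in any mouse. In 7 mice none of the 9 passed, the largest being Cyp7a1 with the mitochondrial share at r = -0.801 (exact permutation p = 0.0266, adjusted p = 0.194). Recovered reads gave adjusted p of at least 0.206 in 8 mice. Their largest relation was with Sqle, at r = 0.611 (exact permutation p = 0.0871, adjusted p = 0.212) and rho = 0.738 (exact permutation p = 0.0458, adjusted p = 0.206). In 7 mice Sqle and recovered reads had r = 0.605 (exact permutation p = 0.119, adjusted p = 0.268) and rho = 0.714 (exact permutation p = 0.0881, adjusted p = 0.3). The part of these measures in the relations was not tested beyond the fit with depth as a covariate.

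Spread, as SD of log2 value, was led after the adrenal and pancreatic genes by A2m, Ces1f, Scd1 and Cyp3a11 over 8 mice, and by Sgip1, Trat1 and Dmbt1 over 7. Ces1f, a carboxylesterase with near-identical neighbours, had 2993, 28.8, 35.3, 20.1, 80.3, 74.8, 498 and 74.5 in mice 1 to 8, again highest in mouse 1 and next in mouse 7. Dmbt1, a secreted mucosal scavenger protein, had 14.9, 89.7, 233, 738, 150.4, 199.6, 18.5 and 27.9 and was highest in mouse 4, the mouse with pancreatic enzymes. Trat1, a T cell receptor adaptor, had 2.35, 31.3, 385, 32.1, 6.46, 92.7, 46.7 and 8.15 and was highest in mouse 3. Sgip1 had 20.3, 128, 7.07, 132, 212, 8.31, 37 and 228, high in mice 2, 4, 5 and 8 and low in the rest.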

How the data were processed

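Bulk liver RNA was sequenced, 1 library per mouse, after Trizol extraction and DNase I treatment, per the labels' protocols. The submitters' processing notes name bcl2fastq 2.17, FastQC, Trimmomatic 0.38, STAR 2.6.1d, DESeq2 1.22.2 and GRCm38. How reads were assigned to genes (tool, annotation, strand) is not given in the sources used here. The authors deposited gene values as signal, read counts divided by a size factor per library. Whole reads were recovered from the steps of these values (100.0% within 0.001). Of 22392 gene IDs, 21959 had a symbol; symbols and positions come from GENCODE M21, and promoters from RefSeq. The 13990 genes with a mean of at least 10 were fitted in limma 3.58.1 (R 4.3.3) as log2(value + 1) on log2(value + 1) of Cyp7a1, Sqle or A2m, with Benjamini-Hochberg adjustment over all genes, in 8 mice and without mouse 1, and the scripts were tested on simulated data. edgeR 4.0.16 and DESeq2 1.42.0 on the recovered reads were alternatives, beside another pseudocount, no filter, TMM and quantile normalization, depth as covariate, ranks, another tracked gene and leaving out mice. Alternatives to the 7-mouse fits were chosen after seeing the data. The 10 pairs and 9 library measures were tested by two-sided exact permutation; the smallest p possible is 2.5e-05 with 8 mice and 0.0002 with 7. Genes were named by rule: per tracked gene and fit, the 6 called genes with the smallest p in each direction with a mean of at least 50 (the 3 smallest where none was called), up to 4 per list, the 12 with the largest spread, both genes of each pair and 15 set genes. Members and lists were chosen with earlier results of these data known. Of the pairs, 1 is not reported here, nor are some named genes; they stayed in the fits, counts and adjustments.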

Additional observations from a re-analysis of the deposited data

Results flagged for a closer look

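Of 76 series of values examined (named genes, gene lists, library measures), 29 had 1 mouse whose gap to its nearest neighbour, as a share of the whole range, exceeded Dixon's critical value for 8 samples. Chance gives about 1 in 20 groups of values not chosen for their spread, but many of these series were named for a large spread or for following genes in which mouse 1 is extreme, so the 2 shares cannot be compared. The separate mouse was mouse 1 in 18, mouse 4 in 5, mouse 8 in 5 and mouse 7 in 1.

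Mouse 1 was lowest for A2m (0.725), Saa3 (0.546), Lcn2 (0.605) and Asns (0.571), and highest for Cyp3a11 (0.541) and Scd1 (0.549). Among list means it was lowest for acute phase (0.716), endoplasmic reticulum chaperones (0.723), interleukin 6 and STAT3 (0.587), glucocorticoid targets (0.614), sterol efflux and esterification (0.581) and hepatocyte-defining markers (0.571). It was highest for bile acid transport (0.661), fatty acid and triglyceride synthesis (0.613), glucose metabolism (0.537) and sterol uptake and control (0.527). Its mitochondrial share of reads was highest (0.582) and its share in the 10 most abundant genes lowest (0.739). Mouse 1 carried the same labels as the other 7.

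Mouse 8 was highest for the adrenal genes Cyp11a1 (0.906), Cyp11b1 (0.898), Star (0.897), Hsd3b1 (0.83) and Chgb (0.827). Mouse 4 was highest for the pancreatic list (0.756) and for Amy2a2, Amy2a3, Amy2a4 and Amy2a5 (0.545 each), which hold identical values and are 1 measurement. Mouse 7 was highest for cytosolic ribosomal proteins (0.58).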

How the results depend on the processing

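No paired analysis was possible because all 8 mice belong to 1 group. With 8 mice, 1 animal can set a slope, and that is the main limit here. Counts of called genes with Cyp7a1 (1) were 2 with a pseudocount of 5, 2 without a filter, 18 by edgeR, 407 by DESeq2, 351 with depth as covariate, 0 on ranks and 460 with Cyp8b1 in its place. With Sqle (235) they were 590 after quantile normalization, 1089 by DESeq2, 153 with depth, 0 on ranks and 1326 with Hmgcs1, and in 7 mice (11) 6 by edgeR, 0 on ranks, 0 with depth and 1 with TMM. With A2m (1478) they were 119 on ranks, and in 7 mice (8) 18 by edgeR and 24 with Saa3. The cause of these differences was not tested. Leaving out 1 mouse gave 0 to 731 genes with Cyp7a1 (731 without mouse 2), 0 to 1331 with Sqle and 8 to 1615 with A2m, and, among the 7 mice, 0 to 7, 0 to 39 and 1 to 29.

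Without the 2 mice farthest from the median, r reversed for Sqle with A2m (0.251) and Srebf2 (-0.715), and was 0.79 for Cyp7a1 with Cyp8b1 and 0.792 for A2m with Saa3, neither past the threshold. A pseudocount of 5 gave an adjusted exact permutation p of 0.0485 for Sqle with A2m (r = -0.754) and for Cyp7a1 with Cyp27a1 (r = 0.788). Leaving out 1 mouse gave r of -0.066 to 0.684 for Cyp7a1 with Sqle, -0.943 to -0.387 with A2m, 0.711 to 0.934 with Cyp8b1, 0.403 to 0.912 with Cyp27a1 and -0.795 to -0.359 with Nr0b2. For Sqle it gave -0.909 to -0.693 with A2m and 0.619 to 0.904 with Srebf2, and for A2m 0.872 to 0.975 with Saa3 and 0.066 to 0.8 with Socs3. Without mouse 1, r was -0.801 for Cyp7a1 with the mitochondrial share and -0.726 with the share in the 10 most abundant genes, -0.127 and 0.0199 for Sqle, and 0.554 for A2m with the mitochondrial share and 0.0395 with depth. Slopes on A2m that were not called changed sign with 1 mouse left out: -0.038 to 0.012 for Alb, -0.17 to 0.041 for Igf1, -0.025 to 0.038 for Saa1 and -0.0077 to 0.028 for Stat3. Alb had 0.0021 by edgeR and 0.0028 by DESeq2, Igf1 -0.0048 on ranks and Saa1 -0.050 after quantile normalization. Among the 7 mice, leaving out 1 more gave -0.19 to 0.047 for Alb, -0.0021 to 0.082 for Hspa5, -0.041 to 0.016 for Saa1 and -0.057 to 0.12 for Stat3 on A2m, and -1.44 to 1.13 for Insig1 on Sqle, none of them called in 7 mice. There Saa1 had 0.0037 and Stat3 0.0097 on ranks, and 0.020 and 0.019 on Saa3 in place of A2m.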

Other observations

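Kupffer cell and macrophage markers summed to 15884, 15763, 10225, 12777, 17964, 12684, 11151 and 12610 in mice 1 to 8, highest in mouse 5 and lowest in mouse 3. Their mean pairwise correlation was 0.761 over 8 mice and 0.814 over 7, against 0.0015 and 0.0021 between all tested genes. Neutrophil markers had 0.871 and 0.856 and were also highest in mouse 5. Interferon response genes lay 0.66 above their mean in mouse 1 and 0.43 above it in mouse 5 on the log2 scale, and 0.55 below it in mouse 3. Cxcl9, an interferon gamma target chosen after its values were seen, had 102, 44.9, 6.06, 22.1, 343, 11.9, 57.3 and 23.3 in mice 1 to 8 and was highest in mouse 5.

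Hspa1a and Hspa1b, inducible cytosolic chaperones chosen after their values were seen, were highest in mouse 6. Hspa1a had 54.8, 32.2, 24.2, 71.3, 44.3, 576, 64.3 and 73.3 and Hspa1b 175, 111, 71.7, 169.7, 182, 1643, 191 and 194 in mice 1 to 8; the 2 genes are near-identical copies, so their separate values are uncertain. Bile duct markers summed to 2173 in mouse 1, 2579 in mouse 8 and 5108 to 9461 in the others, highest in mouse 4.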
